A study of Homo sapiens with 12 samples.

Results

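Peroxiredoxins and methionine sulfoxide reductases were followed across 4 treatments of the NUGC-4 gastric cancer line. The members were the genes whose symbol in the deposited count matrix was PRDX1, PRDX2, PRDX3, PRDX4, PRDX5, PRDX6, SRXN1, MSRA, MSRB1 or MSRB3, which are 10 of the 60623 genes listed. Of these, 9 passed the filter on low counts and were among the 17096 genes tested, and SRXN1 did not. NUGC-4 is an established line derived from a diffuse gastric cancer, and the labels give its genotype as WT in all 12 libraries. Cells were exposed for 24 h to 1 µM IN10018 together with 1 µM crizotinib (combination), to 1 µM crizotinib alone, to 1 µM IN10018 alone, or served as control, with 3 libraries in each group. IN10018 is an inhibitor of focal adhesion kinase, and crizotinib (spelled Criozotinib in the labels) inhibits the receptor kinases MET, ALK and ROS1. The series title links the pair of drugs to thioredoxin (TRX) signalling, the system from which most members draw electrons. Whether libraries sharing a treatment are independent cultures is not in the labels, and p-values therefore describe spread among libraries only, which may be technical.

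Peroxiredoxins reduce hydrogen peroxide and organic peroxides through a reactive cysteine, and most are then returned to the reduced state by thioredoxin. A peroxiredoxin that is over-oxidised to the sulfinic acid is repaired by sulfiredoxin, which SRXN1 encodes. Methionine sulfoxide reductases repair methionine that has been oxidised in proteins, MSRA acting on the S form of the sulfoxide and the MSRB enzymes on the R form. The members differ mainly in where in the cell they work: PRDX1 and PRDX2 in the cytosol, PRDX3 in mitochondria, PRDX4 in the endoplasmic reticulum, PRDX5 in mitochondria, peroxisomes and cytosol, and PRDX6 mostly in the cytosol.

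The libraries held 13691844 to 20489708 assigned reads. Crizotinib library 2 and combination library 2 stood apart from their groups. On the leading principal component, which held 67.2% of the variance over all tested genes, crizotinib library 2 scored 57.8 against -4.6 and 10.3 for the other crizotinib libraries, and combination library 2 scored 91.4 against 56.3 and 37.8. Mitochondrially encoded genes took 4.28 to 6.99% of reads in the combination libraries, 5.21 to 13.3% with crizotinib, 11.5 to 12.7% with IN10018 and 11 to 11.9% in control. Of 10 gastric and other epithelial markers, KRT8 (1120 to 2360 CPM), KRT18 (531 to 1190 CPM) and KRT7 (193 to 462 CPM) were abundant in every library. EPCAM was at 15.5 to 21.1 CPM, CLDN4 at 1.42 to 7.98 CPM and MUC1 at 3.14 to 7.54 CPM. The other 4 were under 1 CPM in all 12 libraries. KRT19 was at 0, CLDN18 reached 0.114 CPM, TFF3 0.0688 CPM and TFF1 0.356 CPM. The summed epithelial markers stood at 2670 to 4040 CPM with the combination, 2010 to 3550 with crizotinib, 1870 to 2050 with IN10018 and 2190 to 2320 in control. The description label speaks of adipogenic differentiation, but ADIPOQ and LPL had no reads in any library. The 8 adipocyte markers summed to 129 to 154 CPM with the combination, 106 to 144 with crizotinib, 101 to 109 with IN10018 and 108 to 118 in control, mostly from FABP4 and PPARG. Of 7 fibroblast markers, COL3A1 alone was abundant (5060 to 6640 CPM), and the other 6 stayed at or under 3.75 CPM. The 5 leukocyte markers summed to 28.4 to 33.6 CPM with the combination, 28.5 to 32.9 with crizotinib, 17.8 to 20.5 with IN10018 and 19.0 to 23.6 in control, of which CD14 gave 17.4 to 33.2 CPM and CD3E none. The part of these differences in the results below was not tested. In such bulk libraries, fewer cells that carry a transcript and less of that transcript per cell cannot be told apart.

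Levels are in CPM, which are reads scaled to a common library total after TMM correction. To compare genes, CPM was also divided by the length of all annotated exons in kilobases. On that scale the control cells had most PRDX1 (233 ± 3.50 CPM per kb, SD, n = 3), then PRDX4 (169 ± 9.15) and PRDX3 (116 ± 3.18). PRDX6 (85.6 ± 2.63 CPM per kb) and PRDX5 (83.1 ± 5.78) followed and did not differ beyond their spread, and PRDX2 was at 45.7 ± 1.35. The methionine sulfoxide reductases lay far below, with MSRB3 at 5.91 ± 0.213 CPM per kb and MSRB1 at 5.65 ± 0.308, which did not differ beyond their spread. MSRA was at 0.639 ± 0.160 CPM per kb. SRXN1 was last, at 0.0408 ± 0.0359. In combination libraries PRDX5 headed the order at 293 ± 133 CPM per kb, ahead of PRDX1 (211 ± 9.66) and PRDX4 (188 ± 10.2), though its spread overlapped theirs. PRDX3 stood behind PRDX2 there, with 55.7 ± 11.8 and 67.7 ± 6.81 CPM per kb, again within the spread.

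PRDX5 and PRDX3, the peroxiredoxins that reach mitochondria, moved in opposite directions against control in both treatments that held crizotinib. PRDX5 (ENSG00000126432, GRCh38 chromosome 11, 64318088 to 64321811, plus strand) had 219, 396 and 171 CPM in combination libraries 1 to 3, and 108, 257 and 138 CPM in crizotinib libraries 1 to 3. It had 73.8, 63.5 and 74.3 CPM with IN10018 and 72.5, 70.1 and 80.0 CPM in control. Every library with crizotinib, alone or in combination, lay above all 6 libraries without it, and library 2 was the highest of each crizotinib-treated group. How many of all tested genes separate in this way was not computed, for PRDX5 or for the members below. PRDX5 rose by 1.82 ± 0.31 on the log2 scale in the combination against control (3.52-fold, edgeR adjusted p = 0.00027). With crizotinib alone it rose by 1.18 ± 0.30 against control (2.26-fold, adjusted p = 0.011). Without crizotinib library 2 the value against control was 0.73 and was not called (adjusted p = 0.056). The crizotinib call was also lost with an offset for GC content and length (0.40, adjusted p = 0.092).

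PRDX3 (ENSG00000165672, chromosome 10, 119167703 to 119178833, minus strand), the peroxiredoxin confined to mitochondria, ran the other way. Its levels were 208, 144 and 218 CPM with the combination, 347, 180 and 274 CPM with crizotinib, 337, 342 and 382 CPM with IN10018 and 395, 388 and 409 CPM in control. All combination and all crizotinib libraries lay below all control libraries, and library 2 was the lowest in each of those groups. Crizotinib library 1, at 347 CPM, lay within the IN10018 range of 337 to 382 CPM. PRDX3 fell by 1.06 ± 0.20 on the log2 scale in the combination against control (0.479-fold, adjusted p = 0.00048) and by 0.57 ± 0.19 with crizotinib against control (0.672-fold, adjusted p = 0.034). The crizotinib call was lost without crizotinib library 2 (-0.36, adjusted p = 0.092), without any 1 of the control libraries, without IN10018 library 3 or crizotinib library 3, and with library totals in place of TMM, and the values with 1 library left out ran from -0.79 to -0.36. Of 29 further genes related to the members by symbol or description in the matrix, mostly pseudogenes, 14 had no reads, and the pseudogene PRDX3P2 had 290 reads over all 12 libraries, while PRDX3 had 9156 to 19406 reads per group. The ratio of PRDX5 to PRDX3 per kb was 4.02, 10.5 and 2.99 with the combination and 1.19, 5.47 and 1.93 with crizotinib. With IN10018 it was 0.838, 0.711 and 0.745, and in control 0.701, 0.692 and 0.749. PRDX3 was thus the more abundant per length in all 6 libraries without crizotinib, and PRDX5 in all 6 libraries with it. This order rests on the annotated exon lengths of 3417 bases for PRDX3 and 893 for PRDX5. In CPM not divided by length, PRDX3 was still the higher in crizotinib library 1 (347 against 108), crizotinib library 3 (274 against 138) and combination library 3 (218 against 171).

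**Figure D1:**
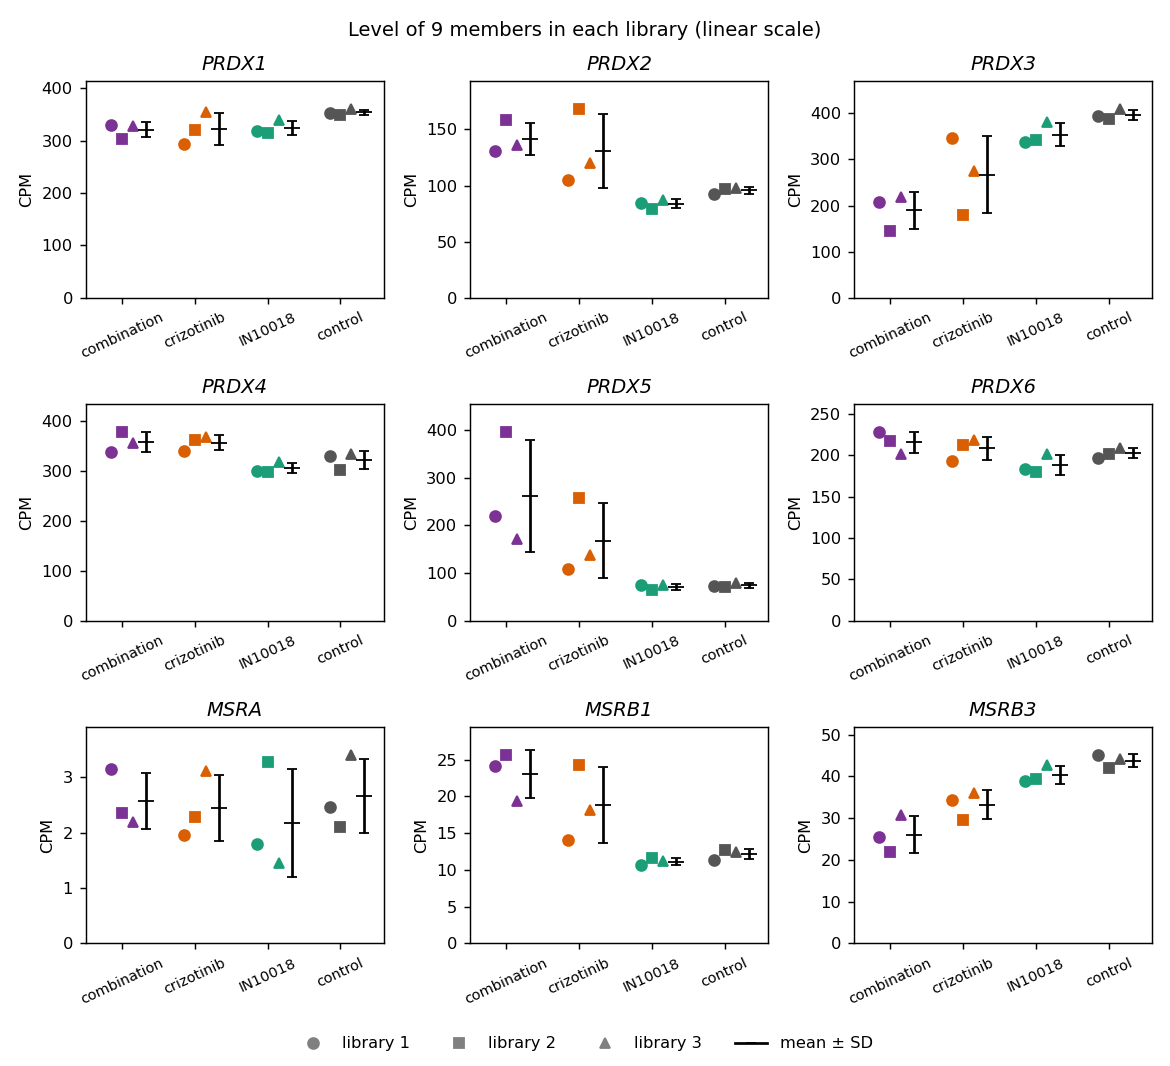
Each panel plots the level (CPM, linear axis from 0) of 1 gene in all 12 libraries by group, with symbols for libraries 1 to 3 and a bar for the mean ± SD of each group. PRDX5 sits at 171 to 396 CPM with the combination against 70.1 to 80.0 CPM in control, while PRDX3 sits at 144 to 218 CPM with the combination against 388 to 409 CPM in control.

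PRDX2 (ENSG00000167815, chromosome 19, 12796820 to 12801859, minus strand), a cytosolic peroxiredoxin known for its abundance in red blood cells, was higher with crizotinib. It had 131, 158 and 136 CPM with the combination, 105, 168 and 120 CPM with crizotinib, 84.4, 79.2 and 87.4 CPM with IN10018 and 92.4, 97.1 and 97.5 CPM in control. No combination or crizotinib library reached down to the control range, and all 3 IN10018 libraries lay under it. PRDX2 rose by 0.57 ± 0.14 on the log2 scale in the combination (1.48-fold, edgeR adjusted p = 0.0039) and by 0.45 ± 0.14 with crizotinib (1.37-fold, adjusted p = 0.027), both against control. The crizotinib call was lost without any 1 of the control libraries and without crizotinib library 2, where the value was 0.23 (adjusted p = 0.13). The values with 1 library left out ran from 0.23 to 0.60, and the call was also lost in a fit of only the 6 libraries. With an offset for GC content and length the direction turned and neither call held, at -0.13 in the combination (adjusted p = 0.23) and -0.04 with crizotinib (adjusted p = 0.75).

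PRDX1, PRDX4 and PRDX6 were not called against control in any treatment in the 12-library fit, although some alternatives called them. PRDX1 (ENSG00000117450, chromosome 1, 45511036 to 45523047, minus strand), the cytosolic and nuclear peroxiredoxin, was at 330, 304 and 328 CPM with the combination, 293, 320 and 354 with crizotinib, 318, 314 and 340 with IN10018 and 353, 350 and 360 in control. Its log2 values against control were -0.14 for the combination (95% interval -0.34 to 0.06), -0.14 for crizotinib (-0.34 to 0.06) and -0.13 for IN10018 (-0.33 to 0.07). The combination and IN10018 libraries all lay under the control libraries, by a margin too small to pass the test. On the opposite strand, MMACHC, a gene of vitamin B12 processing, covers 24.9% of the PRDX1 exon bases and had 4.71 to 8.39 CPM over the 12 libraries. By DESeq2, PRDX1 was called lower in the combination against control (-0.22, adjusted p = 0.047). With an offset for GC content and length it was called lower in the combination (-0.67, adjusted p = 9.2e-05) and with crizotinib (-0.52, adjusted p = 0.0023).

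PRDX4 (ENSG00000123131, chromosome X, 23664262 to 23686399, plus strand) couples peroxide removal to protein folding in the endoplasmic reticulum. It had 338, 377 and 356 CPM with the combination, 339, 361 and 367 with crizotinib, 300, 298 and 317 with IN10018 and 329, 301 and 333 in control. The combination and crizotinib libraries stood above all control libraries by a small margin, with log2 values of 0.15 each (95% interval -0.04 to 0.34, adjusted p = 0.14 and 0.19). With library totals in place of TMM, PRDX4 (0.33, adjusted p = 0.0041) and PRDX6 (0.27, adjusted p = 0.025) were called higher in the combination against control, and PRDX4 with crizotinib (0.27, adjusted p = 0.024). With the offset for GC content and length, PRDX4 was instead called lower in the combination (-0.45, adjusted p = 0.0012) and with crizotinib (-0.28, adjusted p = 0.04). PRDX6 (ENSG00000117592, chromosome 1, 173477266 to 173488807, plus strand), which has a single active cysteine and also phospholipase activity, showed no group apart. Its levels were 228, 217 and 202 CPM with the combination, 193, 213 and 219 with crizotinib, 183, 180 and 202 with IN10018 and 197, 202 and 209 in control. The groups overlapped, with log2 values against control of 0.09 for the combination (-0.11 to 0.29), 0.04 for crizotinib (-0.16 to 0.24) and -0.11 for IN10018 (-0.31 to 0.09).

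Through these changes the make-up of the peroxiredoxin transcripts shifted toward PRDX5. Of the summed CPM per kb of PRDX1 to PRDX6, PRDX5 made up 31.4 ± 9.64% with the combination, 22.5 ± 8.01% with crizotinib, 11.7 ± 0.720% with IN10018 and 11.3 ± 0.445% in control (SD, n = 3 each). PRDX3 made up 6.34 ± 2.05% with the combination, 9.90 ± 4.12% with crizotinib, 15.3 ± 0.446% with IN10018 and 15.9 ± 0.0518% in control. The PRDX1 share was 23.7 ± 4.09% with the combination, 26.1 ± 2.82% with crizotinib, 31.5 ± 0.226% with IN10018 and 31.8 ± 0.499% in control. The shares of PRDX2, PRDX4 and PRDX6 moved by smaller amounts. The sum itself was 906 ± 128 CPM per kb with the combination, 815 ± 92.7 with crizotinib, 675 ± 33.2 with IN10018 and 732 ± 22.4 in control. All 3 combination libraries, at 808 to 1050 CPM per kb, exceeded the 712 to 756 of control, while crizotinib library 1, at 725, lay within the control range. These shares are descriptions, given without a test, and a larger share of 1 gene lowers those of the others by construction.

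**Figure D2:**
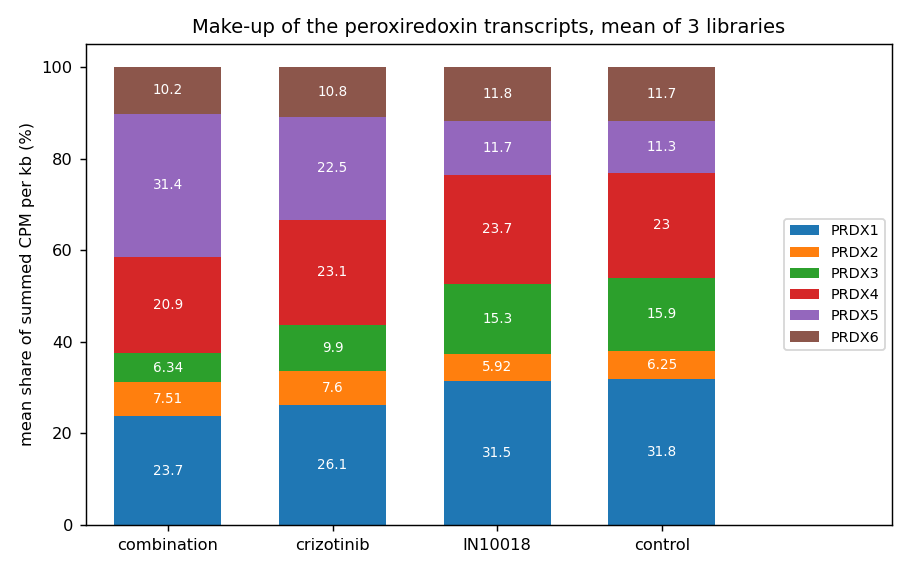
Stacked bars give the mean share (%, n = 3 libraries per group) of each peroxiredoxin in the summed CPM per kb of PRDX1 to PRDX6. PRDX5 takes 31.4% with the combination and 22.5% with crizotinib, against 11.7% with IN10018 and 11.3% in control, and PRDX3 takes 6.34% with the combination and 9.90% with crizotinib, against 15.3% with IN10018 and 15.9% in control.

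SRXN1 (ENSG00000271303, chromosome 20, 646615 to 653370, minus strand) was nearly unread. It had 9 reads over the 12 libraries, no more than 3 in any of them, with 3 reads in the combination group, 0 with crizotinib, 1 with IN10018 and 5 in control. The count of 0 over the crizotinib libraries allows a level of up to 0.0598 CPM (3 counts over the group, counting error only). This count is uncertain, because 85.0% of its exon bases are shared on the same strand with another annotated gene, AL121758.1. How reads that match both genes were counted is not given in the sources used here. AL121758.1 itself had 13 reads in all. No comparison was made for SRXN1.

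MSRB1 and MSRB3 moved apart in the same way as PRDX5 and PRDX3. MSRB1 (ENSG00000198736, chromosome 16, 1938210 to 1943326, minus strand) is a selenoprotein of cytosol and nucleus. It had 24.1, 25.6 and 19.4 CPM with the combination, 14.0, 24.3 and 18.1 CPM with crizotinib, 10.6, 11.6 and 11.2 CPM with IN10018 and 11.4, 12.7 and 12.4 CPM in control. Every combination and crizotinib library was above every control library. MSRB1 rose by 0.92 ± 0.17 on the log2 scale in the combination (1.89-fold, edgeR adjusted p = 0.00056) and by 0.63 ± 0.17 with crizotinib (1.54-fold, adjusted p = 0.015), both against control. The crizotinib call was lost without control library 1 or 3, and without crizotinib library 2, where the value was 0.39 (adjusted p = 0.067). Over the omission of each library it ran from 0.39 to 0.81. With an offset for GC content and length neither call held, at 0.05 in the combination (adjusted p = 0.70) and 0.04 with crizotinib (adjusted p = 0.83).

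MSRB3 (ENSG00000174099, chromosome 12, 65278643 to 65491430, plus strand) is made in forms sent to the endoplasmic reticulum and to mitochondria. It had 25.6, 21.8 and 30.8 CPM with the combination, 34.3, 29.5 and 36.0 CPM with crizotinib, 38.8, 39.4 and 42.8 CPM with IN10018 and 45.1, 42.0 and 44.1 CPM in control. All combination and crizotinib libraries lay below the control libraries, with the lowest value in library 2 of each. MSRB3 fell by 0.75 ± 0.13 on the log2 scale in the combination (0.596-fold, adjusted p = 0.00029) and by 0.40 ± 0.13 with crizotinib (0.759-fold, adjusted p = 0.026), both against control. The crizotinib call was lost without control library 1, without crizotinib library 2 (-0.32, adjusted p = 0.081) and with library totals, with a range of -0.45 to -0.32 over the omission of each library. The ratio of MSRB1 to MSRB3 per kb was 3.23, 4.03 and 2.17 with the combination and 1.40, 2.84 and 1.73 with crizotinib. It was 0.939, 1.01 and 0.900 with IN10018 and 0.870, 1.04 and 0.967 in control, so the ratio was above control in all 6 libraries with crizotinib.

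The start regions of the 5 called members, as RefSeq holds them, are shown because the series title names YAP, which acts through TEAD factors, and because PRDX5, PRDX2 and MSRB1 rose together while PRDX3 and MSRB3 fell. For PRDX5 and MSRB3, which have 2 windows each, the upstream window is printed. Each window runs from 250 bases before to 50 bases after the annotated start, 5′ to 3′ along the gene, on RefSeq's GRCh38.p14. The windows are chr11:64317871-64318170 (plus strand) for PRDX5, chr19:12801751-12802050 (minus) for PRDX2, chr16:1943150-1943449 (minus) for MSRB1, chr10:119178763-119179062 (minus) for PRDX3 and chr12:65278433-65278732 (plus) for MSRB3. Capitals mark GGAATG, the TEAD core, or its complement CATTCC on the other strand.
PRDX5: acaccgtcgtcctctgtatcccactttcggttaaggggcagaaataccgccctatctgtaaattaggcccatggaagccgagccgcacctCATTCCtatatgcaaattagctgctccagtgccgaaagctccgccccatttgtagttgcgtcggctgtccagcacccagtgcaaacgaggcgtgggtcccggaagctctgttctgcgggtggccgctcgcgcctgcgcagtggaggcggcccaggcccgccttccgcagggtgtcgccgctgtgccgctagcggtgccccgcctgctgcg
PRDX2: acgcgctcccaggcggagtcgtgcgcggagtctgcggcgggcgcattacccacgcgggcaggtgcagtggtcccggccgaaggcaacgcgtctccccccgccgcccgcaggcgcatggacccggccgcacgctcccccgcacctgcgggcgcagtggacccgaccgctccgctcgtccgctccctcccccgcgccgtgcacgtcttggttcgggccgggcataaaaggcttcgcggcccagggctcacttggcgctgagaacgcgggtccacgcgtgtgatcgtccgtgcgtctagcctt
MSRB1: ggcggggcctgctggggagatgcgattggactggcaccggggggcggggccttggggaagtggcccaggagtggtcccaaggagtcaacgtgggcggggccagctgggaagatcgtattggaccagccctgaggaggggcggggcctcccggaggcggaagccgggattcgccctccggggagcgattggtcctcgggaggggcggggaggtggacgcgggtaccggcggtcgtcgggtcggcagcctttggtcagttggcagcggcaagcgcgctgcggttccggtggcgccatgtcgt
PRDX3: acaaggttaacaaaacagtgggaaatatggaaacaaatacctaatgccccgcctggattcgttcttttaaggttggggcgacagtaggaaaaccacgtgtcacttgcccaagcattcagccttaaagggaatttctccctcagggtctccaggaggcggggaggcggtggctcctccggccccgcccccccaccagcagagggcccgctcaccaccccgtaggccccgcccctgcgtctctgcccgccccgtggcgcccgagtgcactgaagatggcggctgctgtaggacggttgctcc
MSRB3: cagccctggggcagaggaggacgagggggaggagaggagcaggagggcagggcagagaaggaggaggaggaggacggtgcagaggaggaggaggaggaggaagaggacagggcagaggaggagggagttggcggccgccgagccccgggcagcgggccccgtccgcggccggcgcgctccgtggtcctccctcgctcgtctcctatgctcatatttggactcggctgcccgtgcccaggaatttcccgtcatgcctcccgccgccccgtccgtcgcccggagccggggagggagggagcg

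GGAATG on either strand occurred in 14.0% of 35116 promoter windows. PRDX5 held 1 match, starting 160 bases before its start site, and the windows of PRDX2, MSRB1 and PRDX3 and both windows of MSRB3 held none. A later start of PRDX5 in RefSeq had a window of its own, which held no match. The window of PRDX4 held none, and that of SRXN1 held 1. The core of the antioxidant response element, TGACNNNGC on either strand, occurred in 13.3% of promoter windows and in none of the 9 windows of these 7 members. GC content was 63.3% in the PRDX5 window, 73.7% for PRDX2, 72.0% for MSRB1, 61.3% for PRDX3 and 72.0% for the printed MSRB3 window, against a median of 58.7% over all windows. PRDX1 and PRDX6 had no entry, and the start region of MSRA was not analysed here.

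MSRA (ENSG00000175806, chromosome 8, 10054268 to 10428891, plus strand), the reductase for the S form, was thinly read. Its levels were 3.15, 2.36 and 2.20 CPM with the combination, 1.95, 2.28 and 3.11 with crizotinib, 1.79, 3.28 and 1.45 with IN10018 and 2.47, 2.11 and 3.40 in control, from 115 to 132 reads per group. The groups overlapped throughout. The log2 values against control of -0.06 for the combination (95% interval -0.71 to 0.59), -0.13 for crizotinib (-0.78 to 0.52) and -0.27 for IN10018 (-0.93 to 0.38) are wide, and no change was detectable at this depth. MSRB2, the mitochondrial R-form reductase, was not among the 10 members and is named as a relative of theirs that held reads. It had 9.68, 16.6 and 9.60 CPM with the combination, 4.79, 11.1 and 7.24 with crizotinib, 4.20, 3.28 and 4.27 with IN10018 and 3.96, 4.53 and 3.72 in control. MSRB2 rose by 1.55 ± 0.29 in the combination (adjusted p = 0.00046) and by 0.92 ± 0.29 with crizotinib (adjusted p = 0.025), both against control on the log2 scale. Library 2 was again the highest of each crizotinib-treated group, and MSRB2 was not followed through the left-out libraries or the offset for GC content and length.

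Counted together, 3 of the 9 tested members rose (PRDX5, MSRB1, PRDX2), 2 fell (PRDX3, MSRB3) and 4 were not called in the combination against control. Over all tested genes 62.8% were called there, 33.7% higher and 29.1% lower, so that the members' 55.6% was no larger than the background. Their median log2 value was 0.09, against 0.10 over all tested genes. The same 3 members rose and the same 2 fell with crizotinib against control, where 37.6% of tested genes were called, 20.0% higher and 17.6% lower. The member median was 0.04 there, against 0.08 over all genes. Both comparisons use the same control libraries. Leaving out control library 1, 2 or 3 left 1, 3 and 2 members called with crizotinib, beside 17.7, 27.9 and 20.9% of tested genes. Without crizotinib library 2 no member was called against control, while 20.9% of tested genes still were. With crizotinib library 2 and combination library 2 left out together, the same 5 were called in both comparisons. Beside them stood 61.2% of tested genes in the combination and 36.4% with crizotinib.

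**Figure D3:**
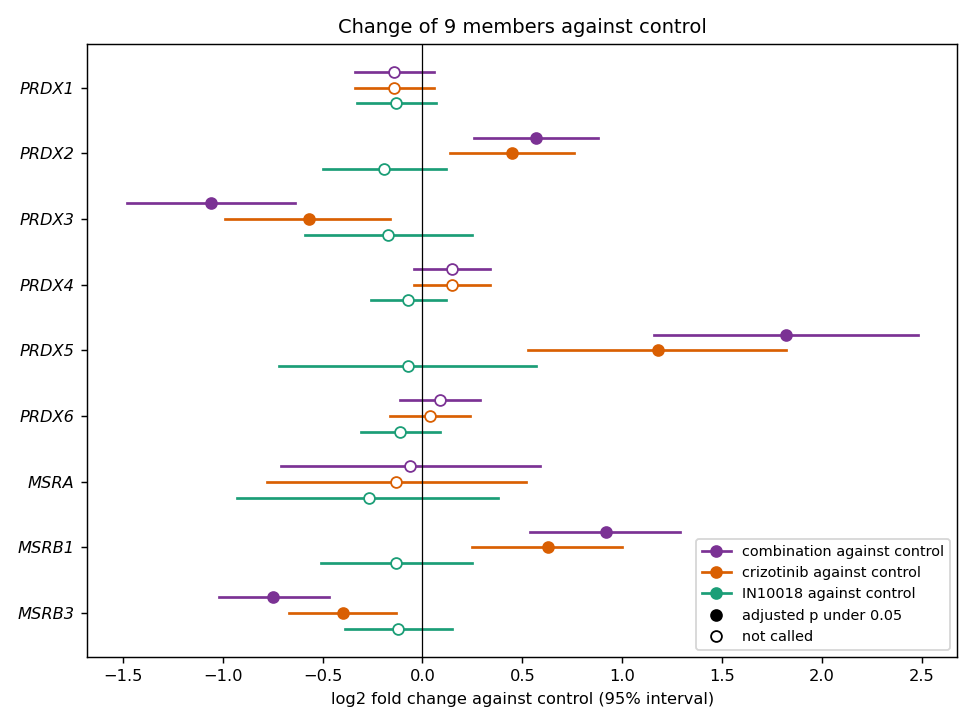
Points give the log2 fold change against control of each tested member for the combination, crizotinib and IN10018, with 95% intervals from the 12-library edgeR fit, filled where the adjusted p was under 0.05. PRDX5, MSRB1 and PRDX2 lie to the right and PRDX3 and MSRB3 to the left for both crizotinib-containing treatments, and the 9 points for IN10018 span -0.27 to -0.07.

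With IN10018 alone, no member was called against control, where 0.503% of tested genes were (86 genes by edgeR), and no member had an unadjusted p under 0.05, against 1886 genes overall. The log2 values ran between -0.27 (MSRA) and -0.07 (PRDX4 and PRDX5), with a median of -0.13 against -0.02 over all tested genes. For PRDX5 the 95% interval of -0.72 to 0.57 still allows a change of moderate size. PRDX1, PRDX2 and PRDX3 had IN10018 libraries that all lay below the control libraries, with edgeR adjusted p of 0.67, 0.68 and 0.79. The share of all tested genes whose groups separate in this way was not computed, here or in the other comparisons. In a fit of the 6 libraries alone, PRDX2 was called lower at -0.16 (adjusted p = 0.035), and 13.7% of tested genes were called.

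With crizotinib added to IN10018, the same 5 members were called in the directions seen against control, in a comparison that shares the combination libraries. In the combination against IN10018, PRDX5 (1.89 ± 0.31, edgeR adjusted p = 0.00046), MSRB1 (1.05 ± 0.17, adjusted p = 0.00049) and PRDX2 (0.76 ± 0.15, adjusted p = 0.00084) rose on the log2 scale. PRDX4 also rose, by 0.23 ± 0.09 (adjusted p = 0.04), a call lost in 15 of 20 alternatives, among them the omission of any control or IN10018 library, of crizotinib library 3 and of combination library 2 or 3, which gave values of 0.15 to 0.22. PRDX3 (-0.89 ± 0.20, adjusted p = 0.0019) and MSRB3 (-0.63 ± 0.13, adjusted p = 0.0012) fell. These 6 of 9 stand beside 57.2% of tested genes called, 29.7% higher and 27.5% lower.

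With IN10018 added to crizotinib, the values of the same members lay further in the same directions without passing the test. In the combination against crizotinib no member was called, and 0.0117% of tested genes (2 genes by edgeR) were. At an unadjusted p under 0.05 there were 3 members, MSRB3, PRDX3 and PRDX5, and 3697 genes overall. PRDX5 differed by 0.64 on the log2 scale (95% interval 0 to 1.28), PRDX3 by -0.49 (-0.91 to -0.07), MSRB3 by -0.35 (-0.62 to -0.08), MSRB1 by 0.29 (-0.07 to 0.66) and PRDX2 by 0.11 (-0.19 to 0.42). The groups overlapped for all 5, since crizotinib library 2 lay among or beyond the combination libraries. Between libraries of the same number, the combination was higher in all 3 pairs for PRDX5 and MSRB1, lower in all 3 for PRDX3 and MSRB3, and higher in 2 of 3 for PRDX2. Pairing by number is an assumption, and the share of all tested genes that moved 1 way in all 3 pairs was not computed. These pair counts therefore do not set the members apart from other genes. With the replicate number as a block, no member was called (PRDX5 0.65, adjusted p = 0.11, and MSRB3 -0.36, adjusted p = 0.077), beside 0.55% of tested genes. This comparison rested on crizotinib library 2. Without it, all 5 were called in those directions (PRDX5 1.08, PRDX3 -0.71, MSRB1 0.52, MSRB3 -0.43, PRDX2 0.33), and so were 32.3% of tested genes. With both number 2 libraries left out the same 5 were called again (PRDX5 0.66, PRDX3 -0.54, MSRB1 0.45, MSRB3 -0.31, PRDX2 0.25), beside 25.2% of tested genes.

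The interaction asks whether the combination departed from the sum of the single drugs on the log2 scale. No member was called, with 0.0702% of tested genes called (12 genes by edgeR). At an unadjusted p under 0.05 there were 1367 genes and no member. The interaction value of PRDX5 was 0.72 (95% interval -0.19 to 1.62), of MSRB1 0.42 (-0.10 to 0.95), of PRDX2 0.31 (-0.13 to 0.75), of PRDX3 -0.32 (-0.91 to 0.27) and of MSRB3 -0.23 (-0.62 to 0.15). With both number 2 libraries left out, PRDX5 (0.74, adjusted p = 0.0067), PRDX2 (0.45, adjusted p = 0.015) and MSRB1 (0.58, adjusted p = 0.041) were called, beside 11.1% of tested genes. Without crizotinib library 2 alone, PRDX2 was called (0.53, adjusted p = 0.047), beside 4.62% of tested genes. DESeq2 called 0 members in the interaction, with IN10018 against control and in the combination against crizotinib, beside 0.41%, 1.33% and 0.0858% of the genes it tested.

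Levels of the called members varied with the share of mitochondrially encoded reads. The Pearson correlation of log2 CPM with that share was -0.93 for PRDX5, -0.93 for PRDX2, -0.92 for MSRB1, 0.94 for PRDX3 and 0.83 for MSRB3. Among the members not called against control it was -0.75 for PRDX4 and -0.69 for PRDX6, but 0.15 for PRDX1 and -0.11 for MSRA. With the leading principal component the correlation was 0.98 for PRDX5, 0.91 for PRDX2, 0.96 for MSRB1, -0.98 for PRDX3 and -0.98 for MSRB3. These correlations pool libraries of all groups and were not computed for all tested genes, so they do not set the members apart. The 4 libraries with the lowest shares were combination library 2 (4.28%), crizotinib library 2 (5.21%) and combination libraries 3 (6.62%) and 1 (6.99%). PRDX5 was highest, at 171 to 396 CPM, and PRDX3 lowest, at 144 to 218 CPM, in those 4. PRDX4, not called against control, lay at 338 to 377 CPM in them and at 298 to 367 CPM in the other 8. Crizotinib library 1 had the highest share of all 12 (13.3%). It held PRDX5 at 108 CPM, above every library without crizotinib, and PRDX3 at 347 CPM, within the range of the IN10018 libraries. The part of this share in the results was not tested.

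**Figure D4:**
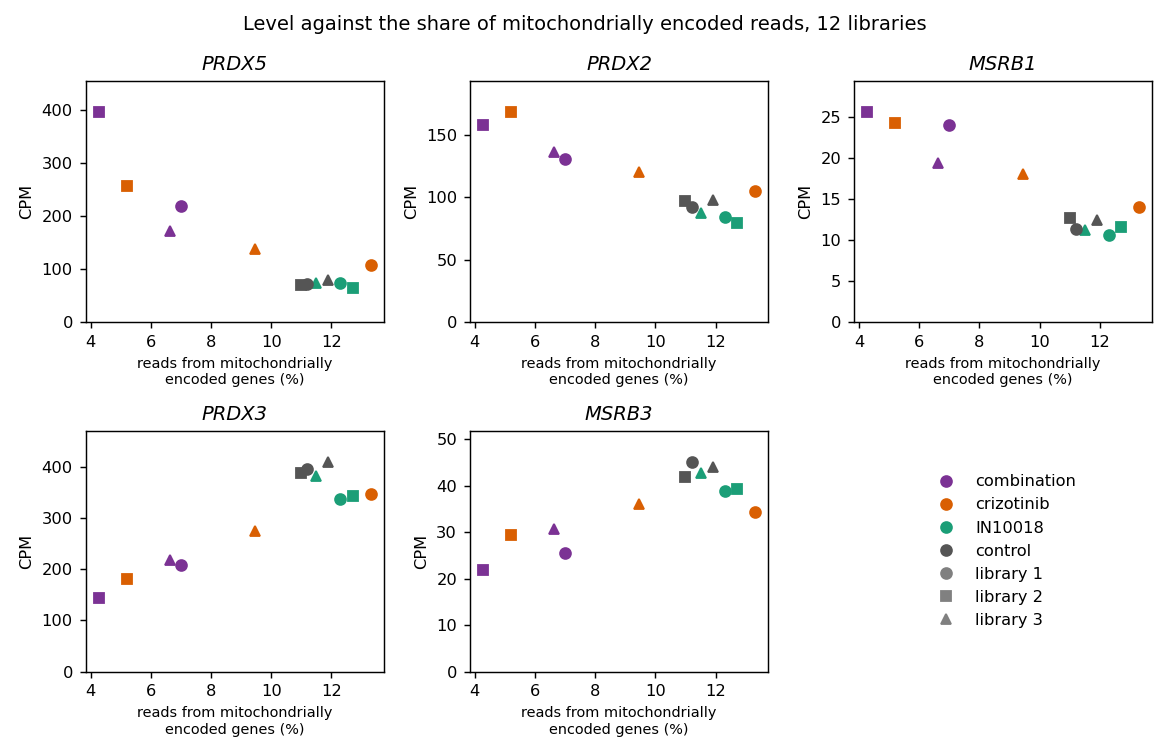
Each panel plots the level of 1 called member (CPM, linear axis from 0) against the mitochondrially encoded share of reads (%) in all 12 libraries, coloured by group with symbols for libraries 1 to 3. PRDX5, PRDX2 and MSRB1 are highest and PRDX3 and MSRB3 lowest in the libraries with shares of 4.28 to 6.99%.

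The members also sorted by base composition. The members that rose had the highest GC content in their longest transcript, at 61.5% for PRDX5, 58.7% for MSRB1 and 56.7% for PRDX2. Those that fell were at 43.1% (PRDX3) and 45.9% (MSRB3), while PRDX4 (51.7%) and PRDX1 (51.4%) lay between, and PRDX6 (45.2%) and MSRA (44.5%) were low and not called. Over all tested genes the same slope was present. In the combination against control the median log2 value was 0.77 for the fifth of genes with GC above 57.7% and -0.53 for the fifth under 41.0%, and with crizotinib against control 0.48 and -0.31. With IN10018 against control it was -0.02 in both.

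An offset for GC content and length in the same fit, chosen after seeing the data, changed several of these results. In the combination against control, PRDX5 (0.63, edgeR adjusted p = 0.0072), PRDX3 (-0.94, adjusted p = 0.00024) and MSRB3 (-0.47, adjusted p = 0.00044) were still called in their directions. MSRB1 and PRDX2 were not. PRDX1 and PRDX4 were called lower, as given above, so 5 members were called beside 54.8% of tested genes. With crizotinib against control, PRDX3 (-0.54), MSRB3 (-0.25), PRDX1 (-0.52) and PRDX4 (-0.28) were called lower and PRDX5 (0.40, adjusted p = 0.092) was not called, beside 32.6% of tested genes. In the combination against IN10018, PRDX5 (0.88), MSRB1 (0.31), PRDX3 (-0.71), MSRB3 (-0.36) and PRDX1 (-0.40) were called and PRDX2 (0.18) was not, beside 46.9% of tested genes. The direction of PRDX5, PRDX3 and MSRB3 was thus the same with and without the offset in these 3 comparisons, and that of PRDX2 against control was not.

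**Figure D5:**
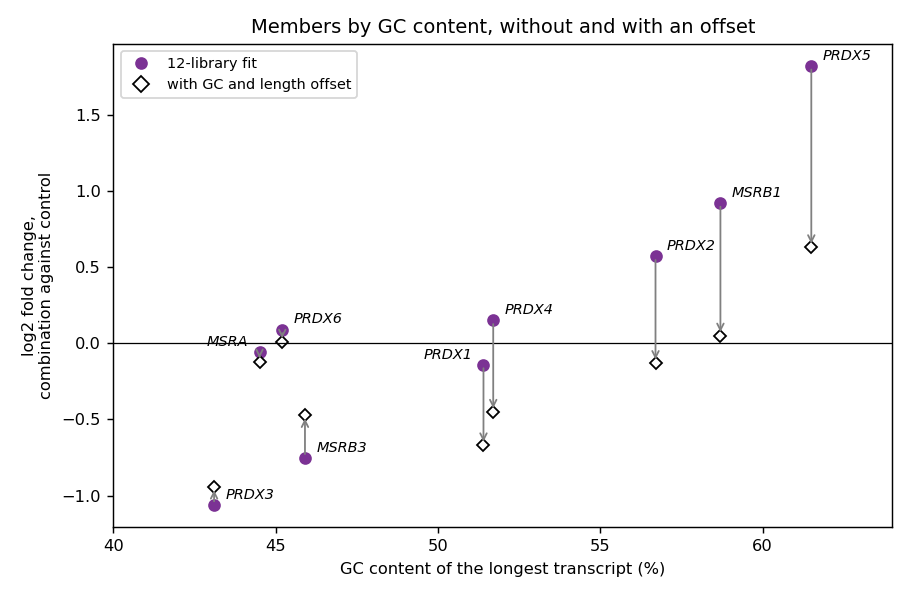
Each tested member is placed by the GC content of its longest transcript (%) and its log2 fold change in the combination against control, as filled circles from the 12-library fit and open diamonds after the offset for GC content and length, joined by arrows. PRDX5 moves to 0.63 with the offset against 1.82 without it and PRDX2 to -0.13 against 0.57, while PRDX3 stays at -0.94 against -1.06.

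The partners of the members changed in both directions. Of 12 genes of the thioredoxin system, which supplies electrons to most members, 5 rose and 7 fell in the combination against control (median log2 value -0.41), and 3 rose and 2 fell with crizotinib (median -0.22). NNT, which makes the NADPH that mitochondrial thioredoxin reductase uses, was at 69.8 CPM with the combination and 153 in control (-1.13 ± 0.17, edgeR adjusted p = 0.00013). TXNRD1, the cytosolic thioredoxin reductase, was at 227 CPM with the combination and 436 in control (-0.94 ± 0.14). Its mitochondrial counterpart TXNRD2 was at 29.8 CPM with the combination and 13.2 in control (1.17 ± 0.24, adjusted p = 0.00098). TXN2, mitochondrial thioredoxin, rose with crizotinib to 68.7 CPM, against 37.6 in control (0.87 ± 0.27, adjusted p = 0.024).

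Of 15 tested genes for glutathione peroxidases, glutaredoxins and glutathione synthesis, 5 rose and 6 fell in the combination against control (median -0.10), and 3 rose and 1 fell with crizotinib (median -0.13). The glutathione peroxidases GPX4, which reduces lipid peroxides, and GPX1 rose by 1.16 ± 0.19 and 1.22 ± 0.22 in the combination, and GPX8 of the endoplasmic reticulum fell by 0.93 ± 0.17. Of 5 tested genes for other peroxide and superoxide enzymes, 3 rose and 1 fell in the combination (median 0.58), and 2 rose and 1 fell with crizotinib (median 0.28). Catalase (CAT) fell to 52.9 CPM with the combination, against 103 in control (-0.96 ± 0.17), and the superoxide dismutase SOD1 rose to 311 CPM with the combination, against 208 in control (0.58 ± 0.11).

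Of 15 tested genes of NRF2, the regulator of antioxidant genes, and its targets, 9 rose and 3 fell in the combination against control (median 0.48), and 6 rose and 3 fell with crizotinib (median 0.29). AKR1C1 rose by 0.71 ± 0.10 in the combination, while the cystine transporter SLC7A11 (-1.21 ± 0.19) and NFE2L2, which encodes NRF2 (-0.87 ± 0.15), fell. Of 11 genes for oxidative folding in the endoplasmic reticulum, where PRDX4 works, 1 rose and 6 fell in the combination (median -0.34), and 2 fell with crizotinib (median -0.15). ERO1A, the oxidase that makes hydrogen peroxide there, fell by 0.90 ± 0.16 in the combination. Of 15 tested genes for selenoproteins and their synthesis, a class that includes MSRB1, 7 rose and 5 fell in the combination (median 0.35), and 7 rose and 2 fell with crizotinib (median 0.16). SELENOM rose to 79.1 CPM with the combination, against 26.3 in control (1.59 ± 0.23).

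Of 9 tested genes of the methionine cycle, 3 rose and 4 fell in the combination (median -0.47), and 2 each rose and fell with crizotinib (median 0). MTR, methionine synthase, and its reductase MTRR fell in the combination (-0.80 ± 0.13 and -1.10 ± 0.14). No gene of these 7 lists was called with IN10018 against control, in the combination against crizotinib or in the interaction by edgeR. These counts stand beside the 62.8% of all genes called in the combination and 37.6% with crizotinib. The genes of these lists were not followed through the left-out libraries or the offset for GC content and length.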

How the data were processed

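Total RNA of NUGC-4 cells was sequenced as 12 directional libraries after TRIzol extraction, per the labels' protocols. The deposited counts held 13691844 to 20489708 reads assigned to genes per library. The values deposited by the authors are raw counts of reads per gene. The submitters' processing notes name hg38, GRCh38, DESeq2, featureCounts, HISAT2, FastQC and Trimmomatic, and versions, annotation release and strand setting are not given in the sources used here. The floor for a count of 0 covers counting error only.

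A single model over the 12 libraries was fitted in edgeR 4.0.16 (R 4.3.3) with TMM scaling, filterByExpr by group and robust quasi-likelihood F tests. A gene was called where its p, adjusted by Benjamini-Hochberg over 17096 genes, was under 0.05. The SE is the absolute log2 fold change divided by the square root of F. GENCODE 29 gave positions, exon lengths and GC content, the last for 98.65% of tested genes. Replicates of 1 group differed by more than sampling noise in every pair. The procedure was tested on simulated data. The members and lists were chosen with earlier results of these data known. All 10 members are named. Genes named from a list were picked from its up to 4 called genes of smallest p in a comparison. Not all of these are named, and those named are not always the ones with the smallest p.

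Residuals of same-numbered combination and crizotinib libraries correlated at 0.22, 0.62 and 0.27, so the numbers were taken to pair this comparison, although the labels do not say what they mark and a pair with different numbers reached 0.42. Other group pairs did not all exceed 0.1. The alternatives tried were library totals, DESeq2 size factors, DESeq2 1.42.0, no filter, a replicate block, the 6 libraries compared, each library left out, both number 2 libraries left out, and the GC content and length offset.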

Additional observations from a re-analysis of the deposited data

How the results depend on the processing

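In the combination against control, PRDX3, PRDX5 and MSRB3 were called in all 20 alternatives and PRDX2 and MSRB1 in 19 of 20. Scaling by library totals moved the median log2 value of all genes to 0.27 in the combination against control and to 0.21 with crizotinib, against 0.10 and 0.08, with 7103 genes higher and 3768 lower in the combination and 4820 and 1949 with crizotinib. With the GC content and length offset, 2257 genes were higher and 3241 lower with crizotinib, and 4238 and 4999 in the combination. With a replicate block the members called were 5 in the combination and 5 with crizotinib against control, 6 in the combination against IN10018 and 0 in the other comparisons, and the block changed no member's call. Of all tested genes, the block called 64.4% in the combination and 43.3% with crizotinib against control, and 59.9% in the combination against IN10018. With no filter, 2 members were called in the combination against crizotinib and 1 in the interaction, beside 4.89% and 0.838% of tested genes. With both number 2 libraries left out, 5 and 3 members were called in these 2 comparisons, beside 25.2% and 11.1% of tested genes. In the fit of 6 libraries, 1 member was called with IN10018, beside 13.7% of tested genes. Leaving out each library gave 0 to 5 members called for crizotinib against control, 0 to 5 for the combination against crizotinib and 0 to 1 for the interaction. The shares of tested genes called ran from 17.7 to 45.4%, from 0.0113 to 32.3% and from 0.0113 to 4.62%.

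The sign of a log2 value turned in the cases that follow. With the offset the values were, for crizotinib against control, PRDX2 -0.04, PRDX4 -0.28 and PRDX6 -0.05. They were PRDX2 -0.13 and PRDX4 -0.45 for the combination against control, PRDX2 -0.09 and PRDX4 -0.17 against crizotinib, and PRDX4 -0.21 against IN10018. PRDX6 was -0.01 with DESeq2 size factors and -0.03 with DESeq2 for crizotinib against control. With library totals the combination gave PRDX1 0.03 and MSRA 0.13 against control, PRDX1 0.05 against crizotinib and PRDX1 0.10 against IN10018. PRDX4 in the combination against crizotinib was -0.01 with no filter and -0.01 with DESeq2. With both number 2 libraries left out, the combination gave PRDX1 0.03 and PRDX4 -0.02 against crizotinib and PRDX1 0.03 against IN10018. Leaving out each library, MSRA ran from -0.32 to 0.04 for crizotinib against control, -0.23 to 0.11 for the combination against control and -0.02 to 0.66 against IN10018. For the combination against crizotinib PRDX1 ran from -0.08 to 0.05, PRDX2 from -0.03 to 0.33, PRDX4 from -0.05 to 0.04, PRDX6 from -0.01 to 0.08 and MSRA from -0.10 to 0.27. The causes of these turns were not tested. MSRA and SRXN1 were thinly read, which limits what their values can show.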
